A study of Schistocerca gregaria with 20 samples.

Results

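N-acetylglucosaminidases (NAGs) remove N-acetylglucosamine units from the ends of sugar chains, and 4 transcripts of this enzyme family were followed through embryonic development in the desert locust, Schistocerca gregaria. They were Sg-nag1 (SgreTd0001091), Sg-nag2 (SgreTa0005600), Sg-fdl (SgreTa0017729) and Sg-hex (SgreTa0015984), taken by transcript identifier, and they make up 4 of the 12988 transcripts in the expression matrix. Messenger RNA was sequenced from the pleuropodia (PLP), glandular limb-derived organs on the first abdominal segment of the embryo, and from the T3 (hind) legs (LEG) of embryos of the same age. The ages were 4, 5, 6, 7, 8, 8-9, 10, 11, 12 and 13 days, with 1 library per tissue and age, 20 libraries in all, each made from appendages of many untreated embryos pooled together. For tests the libraries were grouped as PLP and LEG at days 4-6, at days 7-9 and at days 10-12, with 3 libraries in each group, while day 13 stood alone.

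The libraries of a group came from different ages, so the spread within a group holds development as well as technical error. The pleuropodium and the leg are compared as whole organs, and in such bulk RNA more cells of a type and more RNA per cell cannot be told apart. The files give transcripts of an assembled transcriptome and no genome positions, and whether the 4 NAGs or other copies share reads was not examined.

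Insect chitin is broken down by chitinases, which cut the polymer internally, together with NAGs, which release single sugars from the ends of the fragments. Insect NAGs fall into 4 groups. Those of groups I and II (NAG1 and NAG2) act on chitin fragments in moulting insects, the group III enzyme fused lobes trims the sugar chains of glycoproteins in Drosophila melanogaster, and group IV (Hex) enzymes are related to the lysosomal hexosaminidases of vertebrates. The pleuropodia of grasshoppers and locusts are known for a secretion linked to the breakdown of the serosal cuticle, a sheet of chitin and protein around the embryo, before hatching.

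Depth was 15186075 to 36027338 reads in PLP libraries and 27890837 to 36884141 reads in LEG libraries, as recovered from the deposited values. The shallowest library was PLP at day 8-9, and the day 8-9 pair was sequenced at a different centre from the other 18. The Hox gene abd-A was at 17.2 and 9.14 RPKM (read number per kilobase of transcript, scaled to a fixed library size) in PLP on days 4 and 5, against 0.127 and 0.0989 RPKM in LEG. The leg gene dac was at 2.44 and 3.31 RPKM in PLP on those days, against 30.6 and 46.5 RPKM in LEG. Ubx, the other Hox gene examined, was at 176.5 and 188 RPKM in PLP, against 59.0 and 71.7 RPKM in LEG. These markers thus separated the organs in the direction of their labels on days 4 and 5. Later Ubx was lower in PLP (means of 22.6 against 120 RPKM at days 7-9, 2.97 against 70.2 RPKM at days 10-12). In both periods dac kept its direction (means of 0.0543 in PLP against 87.8 RPKM in LEG at days 7-9, 0.0505 against 53.2 RPKM at days 10-12). The means of abd-A did too, but at low levels (1.21 against 0.189 RPKM and 0.539 against 0.123 RPKM). It was too low in these periods to be tested between the organs.

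On day 4 the PLP to LEG ratio of the NAGs was 0.769 to 2.32, and later the organs were far apart. At days 4-6 none of the 3 members that could be tested passed the limma test, and the PLP and LEG ranges overlapped for all 4. At days 7-9 and again at days 10-12 every PLP library was above every LEG library for all 4. How many of all transcripts overlapped or were separated in this way was not counted. The test was limma on log2 of RPKM plus 0.5, with RPKM scaled between libraries by trimmed means of M values (TMM) and p-values adjusted over all transcripts tested. At days 4-6 limma called 0 of the 3 tested members at an adjusted p under 0.05, 0 of 3 at an unadjusted p under 0.05, and 0 of 3 in limma-voom on the recovered reads, beside 0.121% of 9911 transcripts called. At days 7-9 it called Sg-nag1, Sg-nag2 and Sg-hex higher, 3 of the 3 members that entered the test through both organs, beside 46.8% of 10989 transcripts called in either direction and 24.3% called higher. Sg-fdl was called as well, but it entered the test at days 7-9 through its PLP libraries alone, so its call is not counted as support. Without the day 8-9 pair limma called 3 of the 3 members that could then be tested at days 7-9, Sg-fdl being left out by the filter on low values. At days 10-12 it called 4 of 4 higher, beside 45.4% of 11462 transcripts called and 23.8% called higher.

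**Figure D1:**
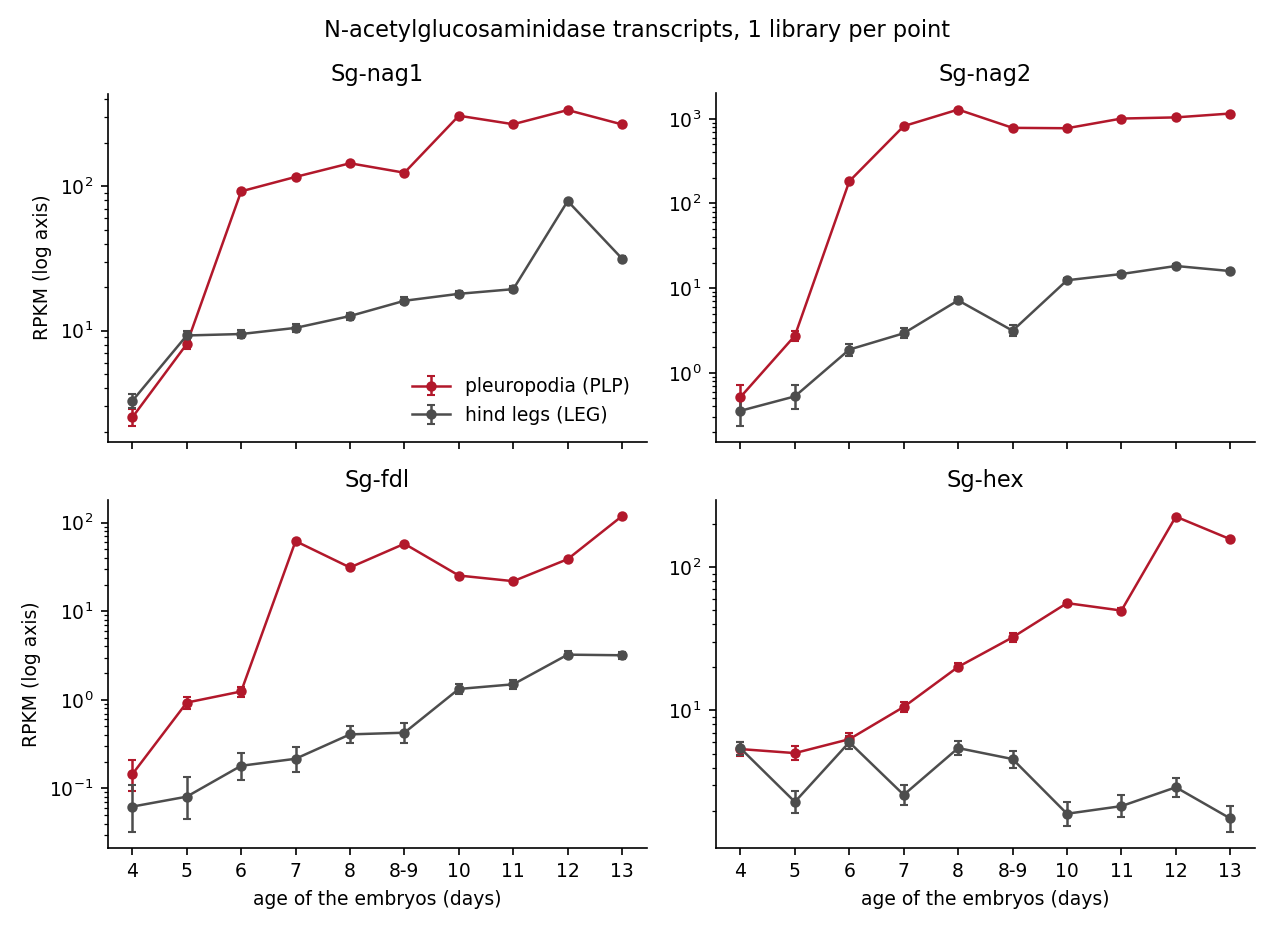
RPKM on a log axis against the age of the embryos in days for Sg-nag1, Sg-nag2, Sg-fdl and Sg-hex, with 1 library per point, PLP in red and LEG in grey, and bars for the 95% Poisson interval of the read count. PLP is more than 2-fold above LEG with over 10 RPKM from day 6 for Sg-nag1 (92.3 against 9.49 RPKM) and Sg-nag2 (183 against 1.88 RPKM), and from day 7 for Sg-fdl (62.0 against 0.216 RPKM) and Sg-hex (10.6 against 2.58 RPKM).

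Sg-nag1, the group I member, had its lowest, median and highest level at 2.51, 134 and 337 RPKM in PLP, against 3.27, 14.4 and 79.1 RPKM in LEG. On days 4 and 5 it was slightly lower in PLP, at 2.51 and 8.08 RPKM, against 3.27 and 9.27 RPKM in LEG. The PLP to LEG ratio was 0.769 on day 4 (95% interval 0.646 to 0.914) and 0.872 on day 5 (0.790 to 0.962), where all intervals on single libraries cover counting error only. On day 6 the PLP level of 92.3 RPKM was 11.4 times that of PLP on day 5, while LEG stood at 9.49 RPKM. This was the largest step of Sg-nag1 between neighbouring stages in either organ.

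Sg-nag1 reached 116, 144 and 124 RPKM in the PLP libraries of days 7, 8 and 8-9, against 10.5, 12.6 and 16.1 RPKM in LEG. The lowest PLP library was thus several times above the highest LEG library, and limma gave a log2 fold change of 3.51 (SE 0.21, adjusted p = 3.62e-05). On days 10, 11 and 12 it was at 308, 269 and 337 RPKM in PLP, against 18.02, 19.4 and 79.1 RPKM in LEG, with a log2 fold change of 3.87 (SE 0.73, limma adjusted p = 0.00739). The LEG library of day 12 stood apart, at 4.07 times the LEG level of day 11, and LEG of day 13 held 31.5 RPKM. Without it the log2 fold change at days 10-12 was 4.73 (limma adjusted p = 0.000123).

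Sg-nag2, the group II member, was the most abundant NAG in PLP from day 6 on. Its lowest, median and highest levels were 0.516, 800 and 1286 RPKM in PLP, against 0.356, 5.16 and 18.3 RPKM in LEG. On day 4 the organs could not be told apart, at 38 reads in PLP and 28 reads in LEG (ratio 1.45, 95% interval 0.868 to 2.46). On day 5 PLP held 2.74 RPKM and LEG 0.526 RPKM (ratio 5.20, 3.69 to 7.50), so the organs differed in Sg-nag2 a day before they differed by so much in Sg-nag1.

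On day 6 Sg-nag2 stood at 183 RPKM in PLP, 66.8 times the PLP level of day 5 (95% interval 58.1 to 77.1), against 1.88 RPKM in LEG. At days 7, 8 and 8-9 it was at 819, 1286 and 782 RPKM in PLP, against 2.93, 7.17 and 3.14 RPKM in LEG. No library of one organ came near a library of the other, and limma gave a log2 fold change of 7.91 (SE 0.37, adjusted p = 1.58e-05), the highest of the 4 members. On days 10, 11 and 12 the values were 774, 1006 and 1039 RPKM in PLP, against 12.4, 14.7 and 18.3 RPKM in LEG (log2 fold change 6.49, SE 0.35, limma adjusted p = 8.68e-05).

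On day 8 Sg-nag2 ranked 31 among all transcripts in PLP, and from day 7 to day 13 its rank in PLP lay between 31 and 81 of 12988. In LEG it ranked 2827 at best, on day 13. Its highest PLP library depended on the scaling: as deposited it was day 8 (1286 RPKM), with 1154 RPKM on day 13, and with TMM factors it was day 13 (2017 RPKM), with 1351 RPKM on day 8.

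Sg-fdl, the group III member, was below the other 3 NAGs in LEG from day 4 to day 11. Its lowest, median and highest levels were 0.144, 28.3 and 119 RPKM in PLP, against 0.0622, 0.416 and 3.24 RPKM in LEG, where the lowest value rests on 12 reads. PLP held 0.144, 0.930 and 1.24 RPKM on days 4, 5 and 6, against 0.0622, 0.0806 and 0.180 RPKM in LEG. The PLP to LEG ratio on day 5 was 11.5 (95% interval 6.80 to 21.1), with both organs under 1 RPKM. Since only 1 of these 6 libraries reached 1 RPKM, Sg-fdl was not tested at days 4-6.

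The large step of Sg-fdl came a day later than those of Sg-nag1 and Sg-nag2. PLP on day 7 held 62.0 RPKM, 49.9 times the PLP level of day 6 (95% interval 43.8 to 57.0), and PLP on days 8 and 8-9 held 31.2 and 57.8 RPKM, against 0.216, 0.407 and 0.425 RPKM in LEG on days 7, 8 and 8-9. Limma gave a log2 fold change of 5.93 (SE 0.26, adjusted p = 1.20e-05). At days 7-9 Sg-fdl passed the filter of 1 RPKM in 3 libraries only through the 3 PLP libraries. Entry in this way selects for a difference, so the call is not counted as support. The size depends on the pseudocount, as the LEG values lie below it: limma-voom on the recovered reads gave a log2 fold change of 7.43 and a pseudocount of 0.1 gave 6.97.

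On days 10, 11 and 12 Sg-fdl was at 25.3, 21.9 and 38.8 RPKM in PLP, against 1.33, 1.50 and 3.24 RPKM in LEG (log2 fold change 4.09, SE 0.48, limma adjusted p = 0.00125). Its highest PLP library was that of day 13, with 119 RPKM, 3.07 times that of day 12 (95% interval 2.99 to 3.15), against 3.18 RPKM in LEG on day 13. Day 13 has 1 library per organ, so this step has no replicate check.

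Sg-hex, the group IV member, had the smallest log2 fold change of the 4 at days 7-9 and the second largest at days 10-12. Its lowest, median and highest levels were 5.05, 26.2 and 225 RPKM in PLP, against 1.77, 2.75 and 6.01 RPKM in LEG. On days 4, 5 and 6 it was at 5.38, 5.05 and 6.31 RPKM in PLP, against 5.45, 2.31 and 6.01 RPKM in LEG. The ratio was 0.987 on day 4 (95% interval 0.844 to 1.15) and 1.05 on day 6 (0.907 to 1.21), so on these 2 days the organs did not differ beyond counting error. Limma gave a log2 fold change of 0.32 at days 4-6 (95% interval -0.51 to 1.16, adjusted p = 0.717).

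From day 7 to day 10 the PLP level of Sg-hex at each stage was 1.61 to 1.90 times that of the stage before. PLP libraries of days 7, 8 and 8-9 held 10.6, 20.1 and 32.4 RPKM, against 2.58, 5.47 and 4.59 RPKM in LEG (log2 fold change 2.34, SE 0.46, limma adjusted p = 0.00617). Those of days 10, 11 and 12 held 56.0, 49.7 and 225 RPKM, against 1.91, 2.15 and 2.91 RPKM in LEG (log2 fold change 5.49, SE 0.69, limma adjusted p = 0.00160). The day 12 library alone was 4.52 times day 11 (95% interval 4.34 to 4.71), and without it the log2 fold change was 4.71 (limma adjusted p = 0.00172). In LEG Sg-hex was highest on day 6 (6.01 RPKM), whereas the other 3 were lowest on day 4 and highest on days 12 or 13, the day depending on the scaling for Sg-nag2 and Sg-fdl.

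**Figure D2:**
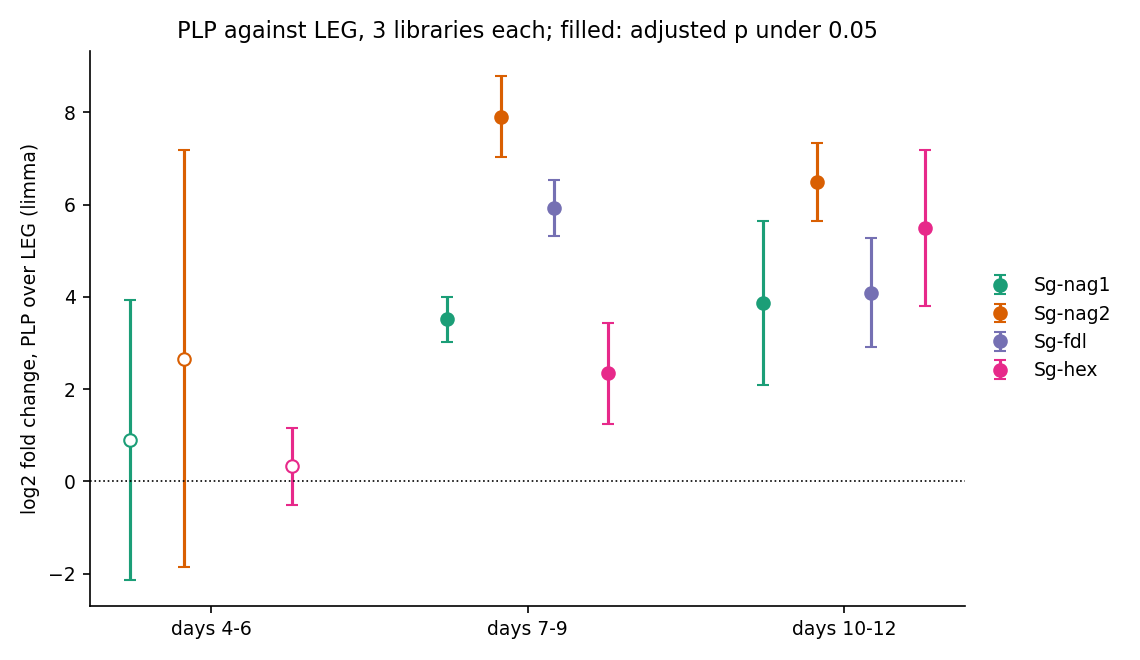
Log2 fold change of PLP over LEG from limma for each NAG at days 4-6, 7-9 and 10-12, with 3 libraries per organ, bars for the 95% interval, and filled points for an adjusted p under 0.05. The open points of days 4-6 have intervals that cross 0, Sg-fdl was not tested there, and at days 10-12 Sg-hex (5.49) lies next to Sg-nag2 (6.49).

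The scaling between libraries moved the sizes of the PLP-LEG differences within a period, and at days 7-9 and 10-12 it changed no call of a member. With RPKM as deposited, the median log2 difference over all tested transcripts was -0.32 at days 7-9 and -0.55 at days 10-12, against -0.07 and -0.02 with TMM factors. Without the factors, the log2 fold changes at days 10-12 were 3.30 for Sg-nag1, 5.92 for Sg-nag2, 3.57 for Sg-fdl and 4.95 for Sg-hex, and limma called all 4. Over all transcripts the split did move, with 2666 called higher and 2478 lower in PLP at days 7-9 (2069 and 3433 without the factors), and 2730 higher and 2471 lower at days 10-12 (1571 and 3692 without).

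An onset was read from the single libraries as the first stage from which PLP stayed more than 2-fold above LEG and above 10 RPKM at every later stage. By this rule Sg-nag1 and Sg-nag2 began on day 6, and Sg-fdl and Sg-hex on day 7. On days 4 and 5, 0 of 4 members met both limits, beside 0.316% and 2.28% of 12988 transcripts, and on day 6, 2 of 4 did, beside 5.78%. From day 7 on 4 of 4 did, beside 8.41% of transcripts on day 7, 7.56% on day 8, 8.28% on day 8-9, 8.53% on day 10, 7.96% on day 11, 7.67% on day 12 and 10.3% on day 13. Sg-hex held 10.6 RPKM on day 7, close to the limit, and with TMM-scaled values its onset was day 8.

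**Figure D3:**
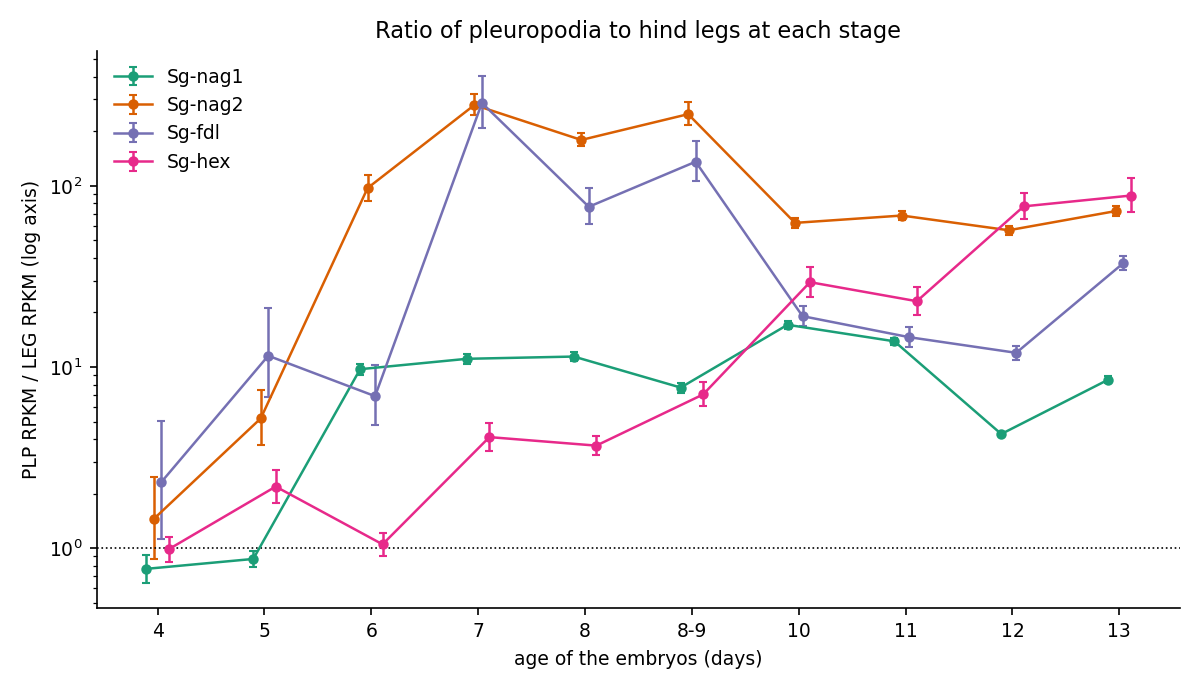
PLP RPKM divided by LEG RPKM on a log axis against age in days for each NAG, with 1 library per organ and 95% exact conditional intervals of the 2 read counts. On day 7 the ratio is 280 for Sg-nag2 and 287 for Sg-fdl, against 11.1 for Sg-nag1 and 4.10 for Sg-hex, whose ratios on days 12 and 13 are 77.1 and 88.4 with overlapping intervals.

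The ratio of the organs followed a different course for each member. From the deposited RPKM it was highest on day 7 for Sg-nag2, at 280 (95% interval 245 to 321), and for Sg-fdl, at 287 (210 to 404). For Sg-nag2 this interval overlaps that of day 8-9 (249, 216 to 289), and with TMM factors the ratios of the 2 stages were 305 and 307. By day 10 it was 62.5 for Sg-nag2 and 19.1 for Sg-fdl, where LEG held 12.4 and 1.33 RPKM. For Sg-nag1 it lay between 7.70 and 17.1 from day 6 to day 11, and it was 4.27 on day 12, the stage of the high LEG library. For Sg-hex it was 4.10 on day 7, 29.4 on day 10, 77.1 on day 12 (65.8 to 90.8) and 88.4 on day 13 (71.8 to 110), the last 2 with overlapping intervals and in the other order with TMM factors (100.2 and 85.5).

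Over all 10 stages the mean log2 ratio of PLP to LEG, with 0.5 added to each RPKM, was 2.55 for Sg-nag1, 5.51 for Sg-nag2, 3.61 for Sg-fdl and 2.83 for Sg-hex. Sg-nag2 and Sg-fdl were higher in PLP at 10 of 10 stages, Sg-hex at 9 and Sg-nag1 at 8. In a two-sided exact permutation test that flips the sign of each stage, p was 0.00195 for Sg-nag2 and Sg-fdl, the smallest that 10 stages allow, 0.00391 for Sg-hex and 0.00781 for Sg-nag1. Without the day 8-9 pair p was 0.00391 for Sg-nag2 and Sg-fdl, 0.00781 for Sg-hex and 0.0156 for Sg-nag1. These are 4 tests without adjustment, and neighbouring stages of one developmental series are not independent replicates.

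Within the pleuropodia all 4 members were higher at days 7-9 than at days 4-6, beside 39.4% of 12235 transcripts that limma called in either direction and 21.4% called higher. The log2 fold changes were 6.99 for Sg-nag2 (limma adjusted p = 0.000584), 5.49 for Sg-fdl (1.24e-07), 3.50 for Sg-nag1 (0.00953) and 1.93 for Sg-hex (0.0165). The call for Sg-nag1 was lost without PLP of day 4 (log2 fold change 2.44, limma adjusted p = 0.0546), and without PLP of day 6 it was 4.93. Sg-nag2 ranged over 5.50, 6.23 and 9.22 without PLP of day 4, 5 or 6, and Sg-fdl was at 6.70 in limma-voom. The call for Sg-hex was lost without PLP of day 5 (adjusted p = 0.0559), day 8 (0.0524) or day 8-9 (0.0760), and without the day 8-9 pair (0.0882).

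From days 7-9 to days 10-12 limma called 1 of 4 members in PLP, beside 26.7% of transcripts called and 14.6% called higher. This was Sg-hex, at 56.0, 49.7 and 225 RPKM on days 10, 11 and 12, against 10.6, 20.1 and 32.4 RPKM on days 7, 8 and 8-9 (log2 fold change 2.66, SE 0.58, adjusted p = 0.00454). Without PLP of day 12 it was 1.88 (limma adjusted p = 0.0200). Sg-nag1 had a log2 fold change of 1.77 (95% interval -0.25 to 3.79, limma adjusted p = 0.184), Sg-nag2 one of 0.52 (-2.16 to 3.19) and Sg-fdl one of -0.27 (-1.15 to 0.62). The sign for Sg-nag2 turned without TMM factors, at -0.0084.

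Within the legs limma called 0 of 4 members between days 7-9 and days 4-6, 0 of 4 at an unadjusted p under 0.05 and 0 of 4 in limma-voom, beside 1.69% of transcripts called. From days 7-9 to days 10-12 it called 1 of 4, beside 15.6% of transcripts called and 11.1% called higher. This was Sg-fdl, at 1.33, 1.50 and 3.24 RPKM on days 10, 11 and 12, against 0.216, 0.407 and 0.425 RPKM on days 7, 8 and 8-9 (log2 fold change 1.57, SE 0.41, limma adjusted p = 0.0191). Its size was 2.58 in limma-voom and 2.32 with a pseudocount of 0.1, and its call was lost without LEG of day 7 (adjusted p = 0.0754) or day 12 (log2 fold change 1.10, adjusted p = 0.0920), and without the day 8-9 pair (0.0508).

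The change of the PLP-LEG difference between periods was tested as an interaction term. For days 7-9 minus days 4-6 limma called 1 of 4 members, beside 14.4% of transcripts called and 10.4% called with a larger difference: Sg-fdl, whose log2 difference was 5.08 larger (SE 0.58, adjusted p = 2.87e-05). Sg-nag2 was at 5.25 (95% interval 1.46 to 9.04, limma adjusted p = 0.0624), Sg-nag1 at 2.62 (-0.23 to 5.48, 0.222) and Sg-hex at 2.02 (0.27 to 3.76, 0.121). Days 4-6 joined stages before and after the day 6 step of Sg-nag1 and Sg-nag2. Without PLP of day 6, limma called those 2 as well, with changes of 4.05 (adjusted p = 0.00513) and 7.48 (4.90e-06).

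For days 10-12 minus days 7-9 limma also called 1 of 4 members, beside 9.18% of transcripts called and 2.96% called with a larger difference: Sg-hex, whose log2 difference was 3.15 larger (SE 0.82, adjusted p = 0.0251). The call was lost without LEG of day 8 (adjusted p = 0.0615), day 8-9 (0.0564), day 10 (0.0656) or day 11 (0.0676), without PLP of day 7 (0.0682), and in limma-voom (0.109), and without PLP of day 12 the change was 2.37 (0.0417). Sg-fdl had a change of -1.83 (95% interval -3.08 to -0.59, limma adjusted p = 0.0666), which passed without TMM factors (-2.28, adjusted p = 0.0143), without PLP of day 8 (0.0499) and without PLP of day 12 (0.0445). Sg-nag1 was at 0.36 (-2.50 to 3.21) and Sg-nag2 at -1.42 (-5.21 to 2.37).

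The make-up of the family changed with age in PLP. The summed RPKM of the 4 members was 8.55 in PLP on day 4 and 9.13 in LEG, and on day 13 it was 1697 in PLP and 52.4 in LEG. Sg-hex held most of the sum on day 4, with 62.9% in PLP and 59.7% in LEG. From day 6 on Sg-nag2 held 63.4% to 86.8% of the sum in PLP, while in LEG Sg-nag1 was the highest member at every stage from day 5, with 49.2% to 76.4%. Sg-hex was 1.05% of the PLP sum on day 7 and 13.7% on day 12. RPKM is per length, so these shares compare levels between transcripts, under the lengths the authors used.

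**Figure D4:**
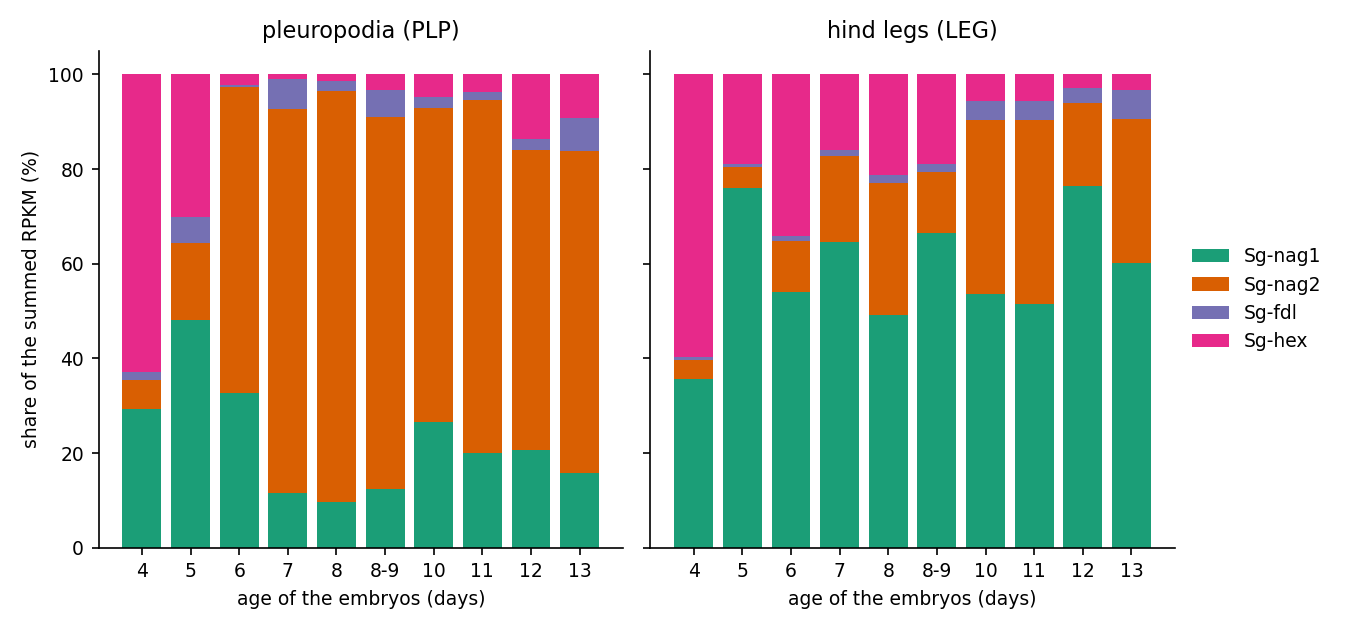
Share in percent of the summed RPKM of the 4 NAGs held by each member, against age in days, in PLP (left) and LEG (right), with 1 library per bar. Sg-nag2 fills 64.7% of the PLP bar on day 6 and 86.8% on day 8, while Sg-nag1 is the largest block in LEG from day 5 to day 13.

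The chitinase transcript Sg-cht5-1 (SgreTa0017664), of the major moulting chitinases that work together with NAGs, had another course in PLP. It was at 0.0158 RPKM (1 read) on day 4, 0 reads on day 5, 572 RPKM on day 6, 49.1 to 88.2 RPKM from day 7 to day 10, 709 RPKM on day 11, 7102 RPKM on day 12 and 15374 RPKM on day 13. In LEG it was at 0 reads on days 4 and 5, 0.211 to 7.12 RPKM from day 6 to day 8-9, and 167, 55.9, 15.4 and 26.7 RPKM on days 10, 11, 12 and 13. The 0 reads in PLP on day 5 leave a level of up to 0.0580 RPKM possible (upper 95% Poisson bound).

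Sg-cht5-1 thus had 1 early high library, day 6, which was also the stage of the large step of Sg-nag1 and Sg-nag2, and its highest levels came on days 12 and 13. The summed RPKM of the NAGs was 12.1 times that of Sg-cht5-1 in PLP on day 7 and 28.8 times on day 8, but 0.231 times on day 12 and 0.110 times on day 13. Limma called Sg-cht5-1 higher in PLP at days 7-9 and not at days 10-12 (log2 fold change 4.14, SE 1.90, adjusted p = 0.124), where the PLP and LEG ranges overlapped, since on day 10 PLP held 49.1 RPKM and LEG 167 RPKM. Sg-cht5-1 was below 1 RPKM in LEG of day 7 (0.330 RPKM), so its entry at days 7-9 needed PLP libraries. The call at days 7-9 is therefore not counted as support.

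**Figure D5:**
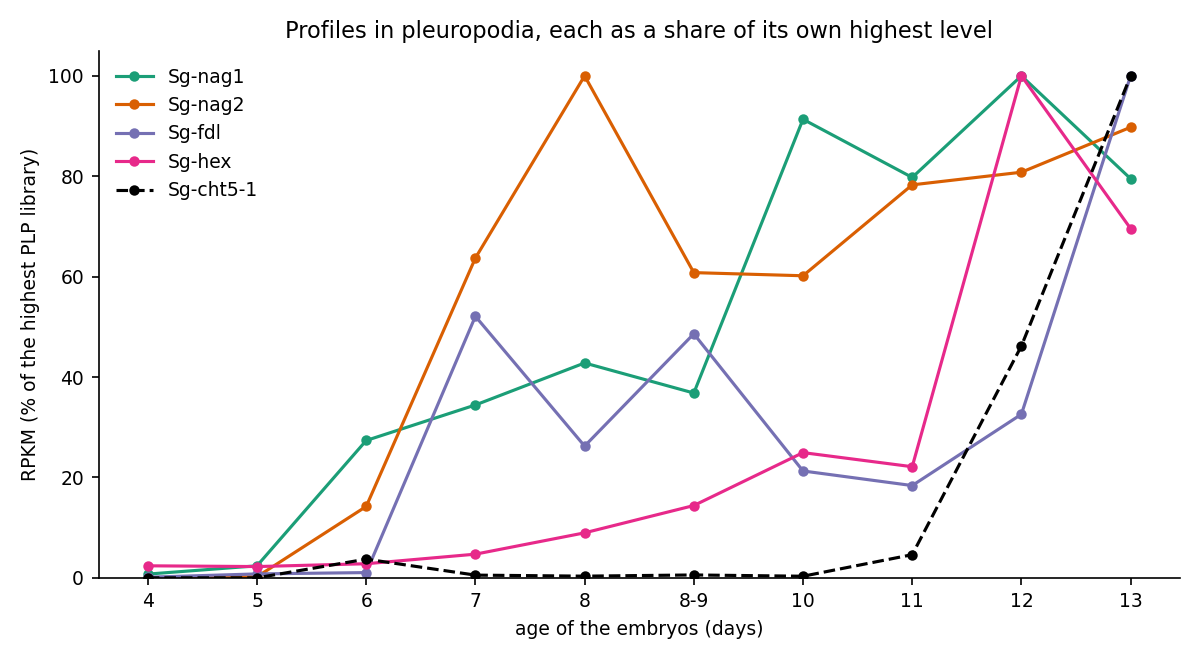
RPKM in PLP as a percentage of each transcript's own highest PLP library, against age in days, for the 4 NAGs (solid) and Sg-cht5-1 (dashed), with 1 library per point. In RPKM as deposited, Sg-nag2 is at 63.7% of its highest level on day 7, when Sg-hex is at 4.71% and Sg-cht5-1 at 0.540%, and Sg-fdl and Sg-cht5-1 are both highest on day 13.

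Other enzymes of the same processes were taken from lists that the study drew from these same libraries as higher in PLP, so their direction at days 10-12 is not independent evidence. Days 7-9 are neighbouring ages of the same series, so calls there are not independent of that choice either. Of 24 proteases of moulting-fluid type, 13 entered the test at days 7-9 and 6 at days 10-12 through PLP libraries alone. Such entry selects for a difference, so they are left out of the calls given next. Limma called the other 11 of 11 higher in PLP at days 7-9, beside 24.3% of all transcripts tested. It called the other 18 of 18 higher at days 10-12, beside 23.8%. Those 11 and 18 were not required to reach 1 RPKM in 3 LEG libraries. Some may still have needed PLP libraries to enter, so these calls are not free of the selection. At days 4-6, 6 of the 24 were tested and 0 were called by limma, beside 0.121% of transcripts called in either direction. On day 6, 5 of 24 were more than 2-fold higher in PLP with over 10 RPKM, beside 5.78% of all transcripts. On day 7, 21 of 24 were, beside 8.41%. The highest 3 in PLP at days 10-12 were the serine protease SgreTa0001636 (7578 ± 1643 RPKM in PLP against 49.4 ± 17.9 in LEG, mean ± SD, n = 3), the neutral endopeptidase SgreTa0002467 (2282 ± 1086 against 62.3 ± 90.8) and the serine protease SgreTb0003860 (1727 ± 761 against 77.4 ± 37.6).

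Of the 4 lysosomal proteins, limma called 3 higher in PLP at days 7-9 (median log2 fold change 1.98), beside 24.3% of transcripts called higher. At days 10-12 it called 4 (median 3.41), beside 23.8%. It called 4 higher in PLP at days 10-12 than in PLP at days 7-9 (median 1.90), beside 14.6%, as it did Sg-hex (2.66). This rise was not particular to the lysosomal list. Limma called 12 of the 24 proteases (median 1.46) and 1 of the 2 other glycosidases given below (median 5.51) higher in the same comparison. All of these lists were picked as higher in PLP at days 10-12, so a rise toward that period is not independent evidence. The highest was cathepsin L, a protease of lysosomes (SgreTb0000759), with 1308 ± 400 RPKM in PLP and 106 ± 3.51 RPKM in LEG at days 10-12 (n = 3). The LITAF homolog SgreTa0001486 had 1109 ± 602 RPKM in PLP and 45.8 ± 6.17 RPKM in LEG, and the lysosomal-associated membrane protein SgreTa0007774 had 823 ± 312 RPKM in PLP and 185 ± 27.8 RPKM in LEG.

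Of the 2 other glycosidases on these lists, limma called 1 of 1 tested higher in PLP at days 7-9 and both at days 10-12. The shares of all transcripts called higher were 24.3% and 23.8%. The alpha-N-acetylgalactosaminidase SgreTa0007886, which removes a different terminal sugar, had 4373 ± 731 RPKM in PLP and 3.85 ± 0.853 RPKM in LEG (n = 3, log2 fold change 10.54, limma adjusted p = 1.26e-05). The myrosinase-like SgreTa0001321 had 2070 ± 919 RPKM in PLP and 3.93 ± 0.657 RPKM in LEG. Both were above Sg-nag2, which averaged 940 ± 145 RPKM in PLP and 15.1 ± 2.96 RPKM in LEG in the same libraries.

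The transcripts most like each NAG were found by Pearson's r of log2(RPKM + 0.5), with RPKM as deposited, over the 20 libraries among 12449 transcripts. For Sg-nag1 they were SgreTa0016823 (r = 0.96), SgreTa0005731 (0.96) and Sg-nag2 (0.96). For Sg-nag2 they were SgreTa0017671 (r = 0.99), SgreTa0003056 (0.98) and SgreTa0014786 (0.98), and Sg-nag1 came 44th in order. For Sg-fdl they were SgreTa0016844, SgreTa0005014 and SgreTa0017694 (r = 0.98 each), and for Sg-hex SgreTb0009548, SgreTb0035365 and SgreTb0039136 (r = 0.96 each). The sources used here give no names for these other transcripts, and all points share the libraries, their depth and their ages.

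Among the NAGs in PLP, Pearson's r over 10 libraries was highest for Sg-nag1 and Sg-nag2 (r = 0.97, Spearman's rho 0.67) and lowest for Sg-nag2 and Sg-hex (r = 0.69, rho 0.68). By rank the order was another, with rho highest for Sg-nag1 and Sg-hex (0.94) and lowest for Sg-nag1 and Sg-fdl (0.49). In LEG the r of Sg-hex with the other 3 lay between -0.59 and -0.48, while those 3 had r between 0.85 and 0.91. All of these use RPKM as deposited, and r with TMM factors was not computed. The negative r in LEG depends on the scaling of late libraries. Sg-hex was lowest in LEG on day 13 as deposited (1.77 RPKM). With TMM factors day 13 held 3.20 RPKM, above days 10 and 11 (1.60 and 1.76 RPKM). These correlations describe 10 ages of one series and carry no test.

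A transcript used here as a haemocyte (blood cell) marker was also higher in the pleuropodia at days 10-12. The study lists it as related to immunity, among transcripts picked as higher in PLP on these libraries. Its direction at days 10-12 is therefore not independent evidence. Pro-phenoloxidase subunit 2 (SgreTa0006966), an enzyme of melanin formation made by insect haemocytes, was at 462, 1041 and 2540 RPKM in PLP on days 10, 11 and 12, against 187, 136 and 112 RPKM in LEG (log2 fold change 3.49, limma adjusted p = 0.00900). From days 7-9 to days 10-12 limma called it higher in PLP (log2 fold change 7.73), as it did Sg-hex. Pro-phenoloxidase subunit 2 was called higher in LEG over the same periods as well (4.71), where Sg-hex was not. Its part in the NAG differences of days 10-12 was not tested. At days 7-9 it was at 0.750, 30.9 and 8.82 RPKM in PLP, against 0.332, 24.7 and 9.77 RPKM in LEG, with overlapping ranges. On day 6 it had 0 reads in PLP and 2 reads in LEG. It was the 1 haemocyte marker examined.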

How the data were processed

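The matrix holds RPKM values that the authors deposited for 12988 transcripts in 20 libraries, although it is named a count matrix. Per the study's methods and labels, reads of 50 bases (for the day 8-9 pair, longer paired reads trimmed to that length) were mapped with Bowtie2 2.2.5 to the study's own transcriptome, and transcripts of constantly low expression were removed. A second table, with the authors' own comparison at days 10-12 (mean RPKM, log2 ratio, difference, probability and ranking), was not used. Read counts and depths were recovered from the RPKM steps: for 12987 transcripts a length between 200 and 30000 bases made 100% of values whole within 0.05 reads. The shortest such length was taken, as its multiples fit too and would multiply the reads and narrow the intervals, which gave 2657, 2135, 5228 and 1681 bases for Sg-nag1, Sg-nag2, Sg-fdl and Sg-hex. Intervals are 95% exact intervals of these reads. For the day 8-9 pair the paper reports that both reads of a trimmed pair entered as single reads, whereas the labels name a single direction. If both were counted, the day 8-9 intervals are too narrow.

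RPKM was divided by TMM factors computed in R 4.3.3. Log2(RPKM + 0.5) was fitted with limma 3.58.1 (trend, robust off) on transcripts with RPKM of at least 1 in at least 3 libraries, with Benjamini-Hochberg adjustment over all transcripts tested. Tissue comparisons used the 6 libraries of a period, and the others the 18 libraries of days 4 to 12. The study sequenced 1 sample per organ and stage, so no age has a biological replicate. The p-values weigh a difference against the spread between libraries of different ages, which holds development as well as error. On simulated data, the fit recovered 44 of 50 transcripts changed 2-fold at days 7-9 and 20 of 50 at days 10-12, and 50 of 50 changed 4-fold in each. There were 11 and 10 false calls. At days 4-6 it recovered 50 of 50 changed 2-fold, with 11 false calls. The simulated noise was independent between libraries, at the median log2 SD of LEG (0.125, 0.243 and 0.351 in the 3 periods). That SD was the same for all transcripts and for both organs. Power for transcripts with a larger spread was therefore not measured, such as Sg-nag1 and Sg-nag2 at days 4-6 (limma SE 1.25 and 1.86). The simulated noise held no course with age, so power for transcripts that change within a period was not measured. PLP and LEG of the same day share an age. Their deviations from the group means correlated over 0.1 at every age up to day 12 except days 5 and 11. The main tests left this pairing out, and the day entered as a block only in an alternative. Alternatives were other scaling, pseudocounts (0.1 and 1), filters, a day block, limma without trend, leaving out libraries, and limma-voom on the recovered reads. The last was chosen after seeing the data and called 2665 transcripts higher and 2448 lower in PLP at days 7-9. The members and lists were chosen with earlier results of these data known. Named besides the members were Sg-cht5-1, the 3 transcripts most like each member, and at most 3 of each list, highest in PLP at days 10-12. Other chitinases were not used here. Python 3.11.15 with scipy 1.17.1 was used for the rest.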

Additional observations from a re-analysis of the deposited data

Results flagged for a closer look

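In 2 cases the difference between pleuropodia and legs itself changed between periods in limma's interaction test. For Sg-fdl the log2 difference was 5.08 larger at days 7-9 than at days 4-6 (adjusted p = 2.87e-05), with PLP at 31.2 to 62.0 RPKM and LEG at 0.216 to 0.425 RPKM in the later period, and PLP at 0.144 to 1.24 RPKM and LEG at 0.0622 to 0.180 RPKM in the earlier one. For Sg-hex it was 3.15 larger at days 10-12 than at days 7-9 (adjusted p = 0.0251), with PLP at 49.7 to 225 RPKM and LEG at 1.91 to 2.91 RPKM in the later period, and PLP at 10.6 to 32.4 RPKM and LEG at 2.58 to 5.47 RPKM in the earlier one. The call for Sg-hex was lost without any of 5 single libraries, PLP of day 7 and LEG of days 8, 8-9, 10 and 11.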

How the results depend on the processing

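Of 593 alternative values of the members' log2 fold changes, 562 kept their direction and their side of the threshold, 14 lost a call, 9 gained one and 8 turned sign. At days 7-9 limma called Sg-nag1, Sg-nag2 and Sg-hex higher in PLP in each alternative. Sg-fdl entered there through its PLP libraries alone, so its call is not counted as support. Without a PLP library it drops out of the test. At days 10-12 it called 4 of 4 in each alternative. The sign turned only for values that were not called: leaving out a library gave -0.54 to 1.95 for Sg-nag1 and -0.049 to 0.54 for Sg-hex at days 4-6, -0.46 to 0.19 for Sg-hex in LEG at days 7-9 against days 4-6, and -0.091 to 1.22 for Sg-nag1 in the change of the difference at days 10-12, and RPKM as deposited gave -0.0084 for Sg-nag2 in PLP at days 10-12 against days 7-9. For the change of the difference at days 7-9, limma called 2 members with a pseudocount of 1, 3 with the day as a replicate block (also Sg-nag2, adjusted p = 0.0252, and Sg-hex, 0.0189) and 1 to 3 without a library. For days 10-12 it called 2 without TMM factors, 2 with the block (also Sg-fdl, 0.0198), 0 in limma-voom and 0 to 2 without a library. In LEG at days 10-12 against days 7-9 it called 0 without the day 8-9 pair and 0 to 1 without a library. With fold over 4 the onset of Sg-hex was day 8, as with TMM-scaled RPKM, and with RPKM over 50 it was day 12, with day 13 for Sg-fdl. The cause of these changes was not tested.

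Libraries of the same day correlated in their deviations from the group means at 0.382, 0.392 and 0.636 in days 7-9. The values were 0.413, 0.280, 0.218 and 0.175 on days 4, 6, 10 and 12, but -0.0231 on day 5 and -0.0181 on day 11. The block stands only for a shared age. Beside the calls above it changed none of the members' calls. With the block limma called 3874 transcripts lower at days 7-9 (2478 without it), 0 higher and 0 lower at days 4-6 (5 and 7), and a change of the difference smaller for 880 at days 7-9 (497) and larger for 549 at days 10-12 (362). Without TMM factors, limma called 732 transcripts higher and 3333 lower in PLP at days 10-12 against days 7-9, where the scaled values gave 1781 and 1484. In PLP at days 7-9 against days 4-6 it called 2102 higher and 3046 lower, where the scaled values gave 2616 and 2199. The change of the difference was called larger for 988 and smaller for 640 transcripts at days 7-9 (scaled 1268 and 497), and larger for 200 and smaller for 958 at days 10-12 (scaled 362 and 761, limma-voom 114 and 330). With 1 library per age, a step between ages has counting error only behind it, and in LEG at days 4 and 5 Sg-fdl and Sg-nag2 rest on 12 to 40 reads.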
